A study of Mus musculus with 8 samples.

Results

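Immediate-early transcription factors were examined in mouse neural stem cells as 10 genes: Egr1, Egr2, Egr3, Fos, Fosb, Fosl2, Jun, Junb, Ier2 and Myc. Every probe set annotated with exactly 1 of these symbols was used. This gave 14 of the 34945 probe sets that carry 1 gene symbol, for 10 of 18193 genes. NS5 cells, a neural stem cell line that the labels describe as brain cells of embryonic day 11.5, were profiled on 8 Affymetrix arrays, 2 for each of 4 groups. The group Ethanol and TGF-beta1 was held for 48 h in TGF-beta1 with ethanol at 400 mg/dl, and the group TGF-beta1 in the growth factor alone. The group Ethanol and FGF2 was held for 48 h in FGF2 with the same ethanol dose, and the group FGF2 in that growth factor alone. Below, the ethanol groups are also called TGF-beta1 with ethanol and FGF2 with ethanol. The growth factor dose is labelled as 10 ng per ul. Cells of all groups had been plated for 24 h with FGF2 and EGF and then kept for 4 h without growth factors. The labels do not say whether the 2 arrays of a group came from separate cultures, so p-values measure the spread between these samples, which may be technical. All groups came from 1 cell line. The RNA is that of whole cultures, so a different number of cells of some type and a different amount of RNA per cell cannot be told apart.

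Immediate-early genes are switched on within minutes of a stimulus, without new protein synthesis, by transcription factors that are already present in the cell. Growth factors act on many of them through the ERK kinases and serum response factor, which binds the CArG box, and depolarisation and cyclic AMP act through CREB, which binds the cyclic AMP response element. After a single stimulus their transcripts usually fall again quickly. In neural tissue Fos and the Egr genes are widely used as marks of recent cell activity.

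The gene order in what follows is by protein family. Egr1, Egr2 and Egr3 encode related zinc finger factors that bind a GC-rich site, and Egr2 is also known as Krox20, a regulator of hindbrain segmentation and of myelinating Schwann cells. Fos, Fosb and Fosl2 encode Fos proteins, which pair with the Jun proteins encoded by Jun and Junb to form the AP-1 factor. Ier2 encodes a small nuclear protein induced with these factors. Myc encodes a factor that pairs with Max and drives growth genes.

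Promoter sequences from RefSeq (GRCm38.p6, 250 bases before to 50 after the start) were at hand for 6 of the 10 genes, namely Egr2, Fos, Fosb, Fosl2, Jun and Junb. Those of Egr2 and Fosb are printed because both genes passed the test below. That of Fos is printed because, like Fosb, it encodes a part of the AP-1 factor. Each runs 5′ to 3′ on the strand of the gene, and capitals mark matches on either strand to the CArG box, to TGACG (the core of the cyclic AMP response element), to TGANTCA (the AP-1 site) and to TATAAA.
Egr2, chr10:67537619-67537918, plus strand: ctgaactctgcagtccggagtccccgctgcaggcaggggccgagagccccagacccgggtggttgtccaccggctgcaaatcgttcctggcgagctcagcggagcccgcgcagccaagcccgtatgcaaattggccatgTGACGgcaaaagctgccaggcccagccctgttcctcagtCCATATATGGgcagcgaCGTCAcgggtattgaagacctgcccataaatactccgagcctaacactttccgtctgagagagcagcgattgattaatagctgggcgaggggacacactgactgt
Fosb, chr7:19309996-19310295, minus strand: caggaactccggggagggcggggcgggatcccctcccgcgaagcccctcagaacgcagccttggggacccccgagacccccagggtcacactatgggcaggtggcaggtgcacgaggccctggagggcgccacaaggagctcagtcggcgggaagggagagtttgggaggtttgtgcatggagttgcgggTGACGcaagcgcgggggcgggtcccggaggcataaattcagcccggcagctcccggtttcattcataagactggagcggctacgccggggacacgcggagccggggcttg
Fos, chr12:85473640-85473939, plus strand: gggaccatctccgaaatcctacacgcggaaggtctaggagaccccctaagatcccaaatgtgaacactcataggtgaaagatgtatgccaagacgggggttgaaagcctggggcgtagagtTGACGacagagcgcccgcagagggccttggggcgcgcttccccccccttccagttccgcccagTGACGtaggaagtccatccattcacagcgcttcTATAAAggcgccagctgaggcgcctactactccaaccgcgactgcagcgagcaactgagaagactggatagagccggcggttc
The table lists 5 windows for Egr2, of which 4 hold a CArG box, and 1 of these 4 is shown. The Egr2 window printed holds 1 CArG box match, which begins 72 bases before the start, and 2 TGACG matches, 111 and 55 bases before it. The Fosb window holds 1 TGACG match, and the Fos window 2 of them and 1 TATAAA. No 2 of the printed matches overlap. Among all 32851 promoter windows of this length, 1.63% held a CArG box, 20.8% TGACG, 7.81% TGANTCA and 13.6% TATAAA. Counted by gene and not by window, 1 of the 6 genes had a window with a CArG box, 4 with TGACG, 2 with TATAAA and 0 with TGANTCA. Egr2 had 5 windows, some of which overlap, so these counts cannot be set directly against the shares by window. These matches describe the letters in the windows, and no match says nothing about sequence outside them.

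Facts of the arrays bear on what follows. Each array had been scaled to the same trimmed mean signal of 500. Fn1 (fibronectin), which TGF-beta1 induces, had signals of 3015 and 4109 in TGF-beta1, against 120 and 139 in FGF2. It was 124 on replicate 1 of Ethanol and TGF-beta1 and 6828 on replicate 1 of Ethanol and FGF2, so the arrays with these 2 labels go against their growth factor. Pmepa1, another TGF-beta target, separated the arrays in the same way, at 1081 and 8198 on these 2. Both arrays were kept in their labelled groups, and values without them are given. A further array, FGF2 replicate 2, stood apart without going against its label: 18 mitosis genes summed to 14968 on it, against 39013 to 50244 on the other arrays without ethanol. Of 11 neural stem and radial glia markers on the array, 1 (Prom1) was near background on all arrays, and their summed signal was 82918 to 105814 with ethanol, against 64300 to 119492 without it.

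No detection calls were at hand, so the level of 147 probe sets for olfactory, vomeronasal and taste receptors, beta-defensins and keratin-associated proteins stood in for background. Signals at or under the 95th percentile of these probe sets on the same array, which lay between 45.1 and 158, are called near background. Of the 112 signals of the 14 probe sets, 29 were near background, 10 of the 56 with ethanol and 19 of the 56 without it. A pair of probe sets had no signal above this level on any array: 1421486_at of Egr3, at 6.83 to 34.7 with ethanol and 4.46 to 63.7 without it, and 1422931_at of Fosl2, at 4.65 to 60.5 with ethanol and 30.0 to 81.3 without it. Neither passed the signal filter with all 8 arrays, so the main test leaves them out. Without both arrays that go against their label, 1422931_at of Fosl2 passed the filter, which makes 13 member probe sets in that fit. Egr1, Fos, Jun (both probe sets), Myc and the other Fosl2 probe set were above background on all 8 arrays. Egr2 (both probe sets), the other Egr3 probe set and Ier2 were near background on FGF2 replicate 2 alone, Junb on 3 arrays without ethanol, and Fosb on 6 arrays. FGF2 replicate 2 had the highest background level, 158, so Egr2 1427683_at at 105 counts as near background there. On TGF-beta1 replicate 1, with a level of 46.3, Egr3 1436329_at at 92.0 does not.

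**Figure D1:**
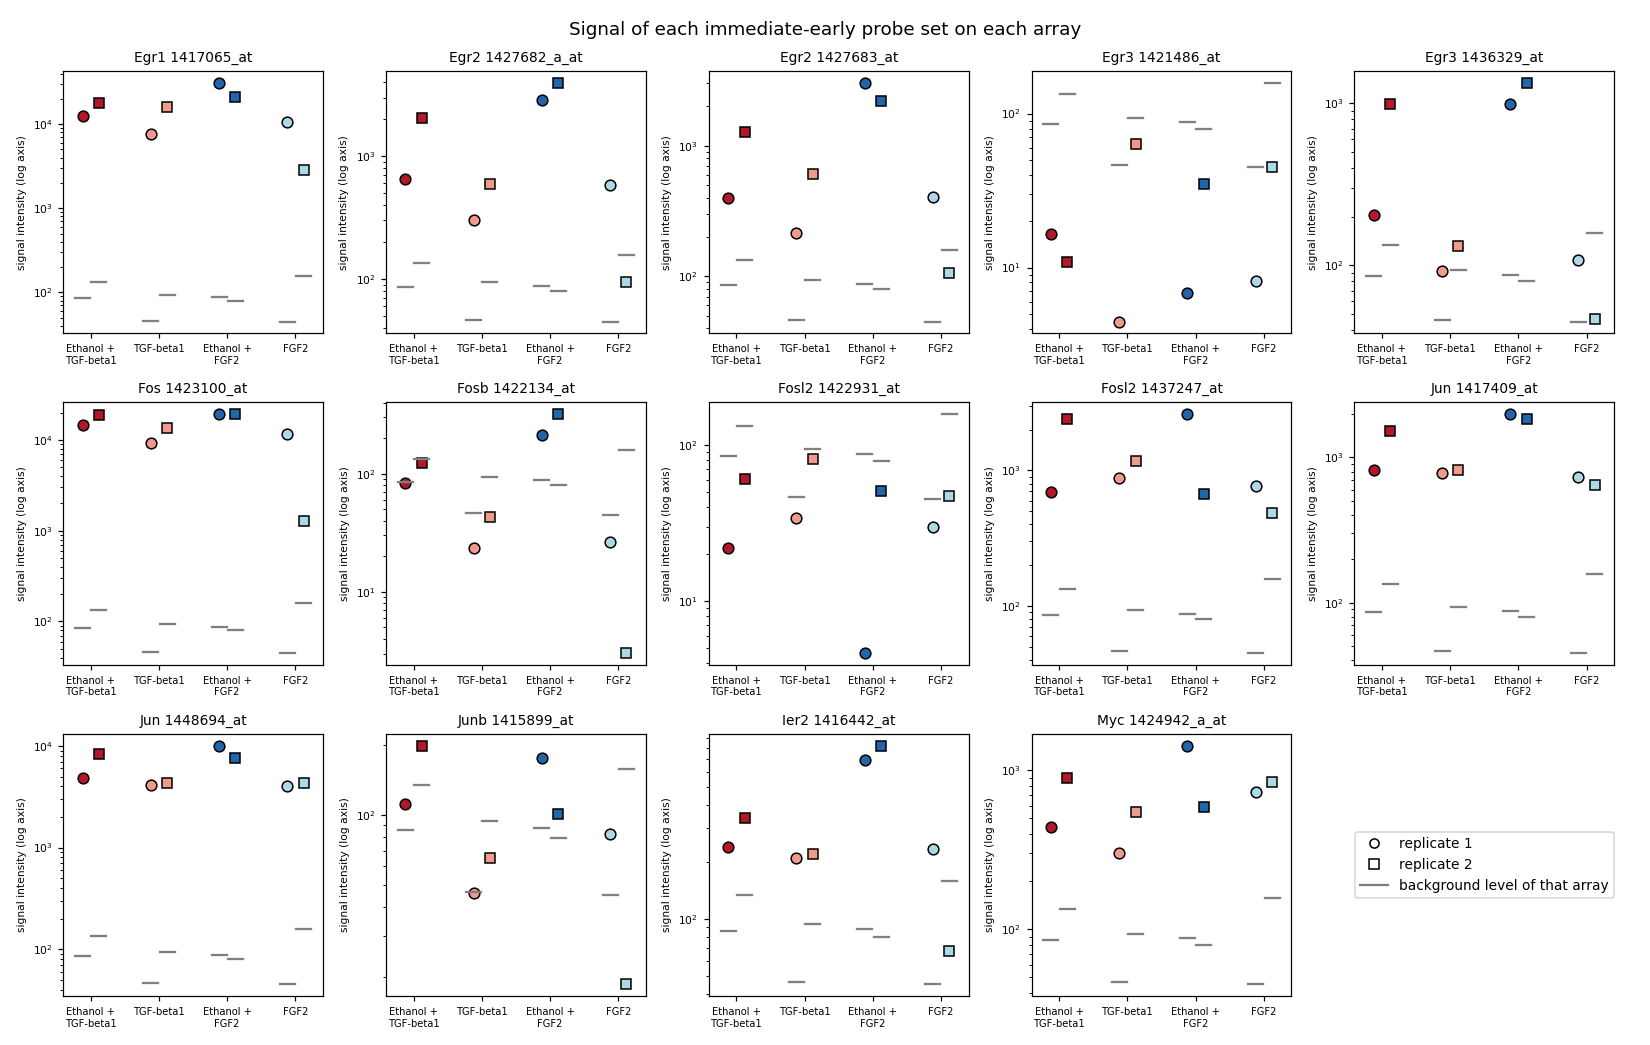
Signal intensity (log axis) of each of the 14 probe sets on each of the 8 arrays, by group, with circles for replicate 1 and squares for replicate 2. Grey bars mark the background level of that array. For Egr2 1427682_a_at, Egr3 1436329_at, Fos, Fosb, Jun, Junb and Ier2 the ethanol arrays all lie above the arrays without ethanol, and the lowest value of most panels is FGF2 replicate 2.

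Transcripts of most of these genes stood higher with ethanol. In 8 of the 14 probe sets, of 7 genes, all 4 ethanol arrays lay above all 4 arrays without ethanol, and in 0 of 14 the reverse held. Over all probe sets with 1 symbol, 2.79% were separated with ethanol higher and 2.76% with ethanol lower (3.31% and 3.88% of those past the signal filter). The average ethanol effect over both growth factors was tested with limma over 20967 probe sets. It was above 0 for all 12 member probe sets that passed the signal filter, against 55.3% of all tested. With no filter 12 of 14 member probe sets lay above 0, the others being the pair near background on all arrays. The median log2 fold change of the 12 was 1.34, against 0.04 over all probe sets tested. The members' median was 0.88 without FGF2 replicate 2 and 1.76 without FGF2 replicate 1. By limma 3 of the 12 rose past an adjusted p of 0.05, those of Egr2, Egr3 and Fosb, and 0 fell. Fosb entered the test through its ethanol arrays: its mean log2 value was 6.53 against a filter at 6.17. Its arrays without ethanol all lay under that level. With no signal filter 3 of 14 member probe sets passed, where 0.796% of all did. The background in this comparison was 1.44% of all probe sets, with 0.167% rising and 1.27% falling. At an unadjusted p under 0.05, 10 of 12 were higher, where 5.05% of all probe sets were. These 12 include a pair of probe sets for each of Egr2 and Jun. The members were chosen with earlier results of these data known, so the shares over all probe sets are no independent check.

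The Egr3 probe set 1436329_at had signals of 204 and 990 in TGF-beta1 with ethanol, against 92.0 and 131 in TGF-beta1 alone. It had 997 and 1338 in FGF2 with ethanol, against 108 and 46.4 in FGF2 alone. All 4 ethanol arrays lay above the others, and replicate 1 of the group labelled Ethanol and TGF-beta1 was the lowest of them. The average log2 fold change was 2.73 ± 0.43 (SE, limma adjusted p = 0.013). It was 1.84 ± 0.61 within TGF-beta1 (adjusted p = 0.369), where it was 0.76 without replicate 2 of Ethanol and TGF-beta1 and 2.92 without replicate 1 of that group. It was 3.62 ± 0.61 within FGF2 (adjusted p = 0.0664).

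Egr2 was measured by a pair of probe sets, which had a correlation of 0.976 over the 8 arrays. Signals of 1427682_a_at were 653 and 2033 in TGF-beta1 with ethanol, against 302 and 594 in TGF-beta1 alone. They were 2857 and 3946 in FGF2 with ethanol, against 582 and 95.3 in FGF2 alone. The groups did not overlap within either growth factor. The average effect was 2.52 ± 0.51 (limma adjusted p = 0.0457). The second probe set, 1427683_at, had 400 and 1264 in TGF-beta1 with ethanol, against 215 and 606 in TGF-beta1 alone, where the groups overlapped. It had 3027 and 2211 in FGF2 with ethanol, against 405 and 105 in FGF2 alone. Its average effect of 2.20 ± 0.48 did not pass (limma adjusted p = 0.0627).

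Egr1 was well above background throughout, with signals of 12546 and 17875 in TGF-beta1 with ethanol, against 7706 and 16157 in TGF-beta1 alone. It had 30891 and 20785 in FGF2 with ethanol, against 10729 and 2817 in FGF2 alone. The groups overlapped within TGF-beta1 and not within FGF2. Its average effect of 1.31 ± 0.40 did not pass the test (limma adjusted p = 0.227).

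Fosb, a Fos protein of which a truncated form accumulates in neurons under repeated stimulation, stood above background only in Ethanol and FGF2. Its signals were 83.2 and 123 in TGF-beta1 with ethanol, against 23.7 and 43.2 in TGF-beta1 alone, all 4 near background. They were 213 and 318 in FGF2 with ethanol, against 26.2 and 3.04 in FGF2 alone, both near background. Taken against the background level of the FGF2 arrays, Fosb was at least 3.09-fold higher in Ethanol and FGF2. The average log2 fold change was 2.06 ± 0.33 (limma adjusted p = 0.0132). Its size depends on the constant added before the log: it was 3.13 with a constant of 1 (adjusted p = 0.0519) and 1.13 with 100 (adjusted p = 0.00984).

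Fos had signals of 14528 and 18830 in TGF-beta1 with ethanol, against 9231 and 13682 in TGF-beta1 alone. It had 19159 and 19100 in FGF2 with ethanol, against 11538 and 1266 in FGF2 alone. Ethanol arrays were all higher, but the value of FGF2 replicate 2 set most of the size. The average effect was 1.43 ± 0.54 (limma adjusted p = 0.367), 0.64 without FGF2 replicate 2 and 2.22 without FGF2 replicate 1, where it passed (adjusted p = 0.00455).

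Fosl2, by its probe set above background (1437247_at), overlapped between the ethanol arrays and the others. It had 691 and 2391 in TGF-beta1 with ethanol, against 886 and 1167 in TGF-beta1 alone. It had 2593 and 665 in FGF2 with ethanol, against 761 and 484 in FGF2 alone. Its 2 highest signals were those of replicate 1 labelled Ethanol and FGF2 and replicate 2 labelled Ethanol and TGF-beta1, the 2 ethanol arrays with high Fn1 (6828 and 8226). The average effect was 0.71 ± 0.46 (limma adjusted p = 0.655).

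The brighter Jun probe set, 1448694_at, lay between 4042 and 4354 on the arrays without ethanol. It had 4820 and 8277 in TGF-beta1 with ethanol, against 4100 and 4354 in TGF-beta1 alone. It had 10054 and 7592 in FGF2 with ethanol, against 4042 and 4285 in FGF2 alone. Both ethanol groups lay above all arrays without ethanol, and FGF2 replicate 2 did not stand apart here. The other Jun probe set, 1417409_at, had 816 and 1515 in TGF-beta1 with ethanol, against 785 and 815 in TGF-beta1 alone. It had 1983 and 1837 in FGF2 with ethanol, against 732 and 644 in FGF2 alone. The average effects were 0.82 ± 0.20 and 0.95 ± 0.21 for these probe sets, neither past the test (limma adjusted p = 0.11 and 0.0727), and the probe sets had a correlation of 0.966 over the 8 arrays.

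Junb gave low signals, 111 and 199 in TGF-beta1 with ethanol, against 46.0 and 65.2 in TGF-beta1 alone, both near background. It had 177 and 101 in FGF2 with ethanol, against 82.5 and 18.6 in FGF2 alone. Against the background level of the TGF-beta1 arrays it was at least 2.25-fold higher in Ethanol and TGF-beta1. The average effect was 1.19 ± 0.37 (limma adjusted p = 0.235).

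Ier2 had 239 and 342 in TGF-beta1 with ethanol, against 209 and 221 in TGF-beta1 alone. It had 692 and 821 in FGF2 with ethanol, against 235 and 67.4 in FGF2 alone. All 4 ethanol arrays were higher, but the lowest of them, at 239, lay just above the highest array without ethanol, FGF2 replicate 1 at 235. The average effect was 1.36 ± 0.32 (limma adjusted p = 0.0902).

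Myc had the smallest average effect of the 12, though not the smallest within TGF-beta1. It had 441 and 892 in TGF-beta1 with ethanol, against 302 and 549 in TGF-beta1 alone, and 1431 and 590 in FGF2 with ethanol, against 735 and 842 in FGF2 alone. The groups overlapped within both growth factors. The average effect was 0.41 ± 0.33 (limma adjusted p = 0.744).

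**Figure D2:**
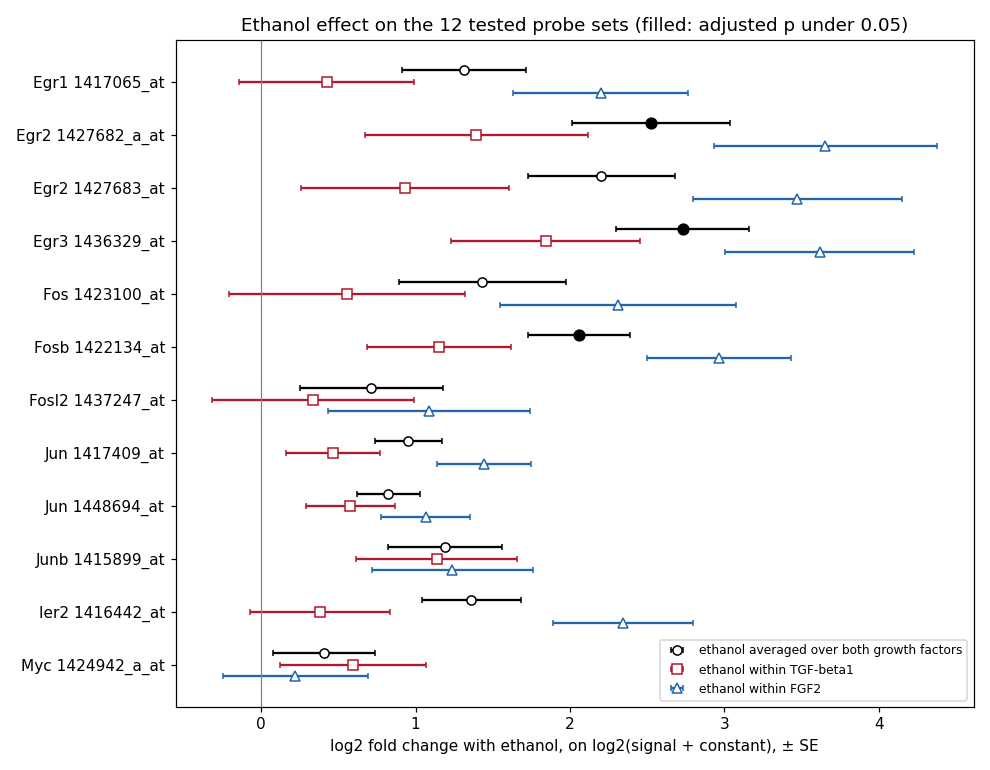
Log2 fold change with ethanol (± SE, on the log2 of signal plus a constant) of the 12 tested probe sets, averaged over both growth factors (black), within TGF-beta1 (red) and within FGF2 (blue). Filled symbols mark an adjusted p under 0.05, which only the averages of Egr2 1427682_a_at, Egr3 1436329_at and Fosb reached, and every point lies above 0.

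The 3 calls in the average depended on single arrays. The number of probe sets past the threshold was 1 without Ethanol and FGF2 replicate 1, 0 without Ethanol and FGF2 replicate 2, 7 without FGF2 replicate 1 and 2 without FGF2 replicate 2. Leaving out replicate 1 of Ethanol and TGF-beta1 gave 5, and replicate 2 of that group 1. It was 0 without TGF-beta1 replicate 1 and 2 without TGF-beta1 replicate 2. The call of Egr3 ended without either Ethanol and FGF2 array (adjusted p = 0.058 without replicate 1 and 0.0726 without replicate 2) and without TGF-beta1 replicate 1 (0.0792). That of Fosb ended without Ethanol and FGF2 replicate 2 (0.0634), Ethanol and TGF-beta1 replicate 2 (0.0705) and TGF-beta1 replicate 1 (0.0801). That of Egr2 held only without FGF2 replicate 1 (0.011) and Ethanol and TGF-beta1 replicate 1 (0.0391), and its other adjusted p with 1 array left out ran from 0.0632 to 0.217. Without both arrays that go against their label, limma called 0 of 13 tested member probe sets and 0 of all 20967 (1971 at an unadjusted p under 0.05), while the effects were 3.37 for Egr3, 3.04 for Egr2 and 2.30 for Fosb. All 12 probe sets had an average effect above 0 with each array left out, down to 0.097 for Myc and 0.23 for Fosl2.

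**Figure D3:**
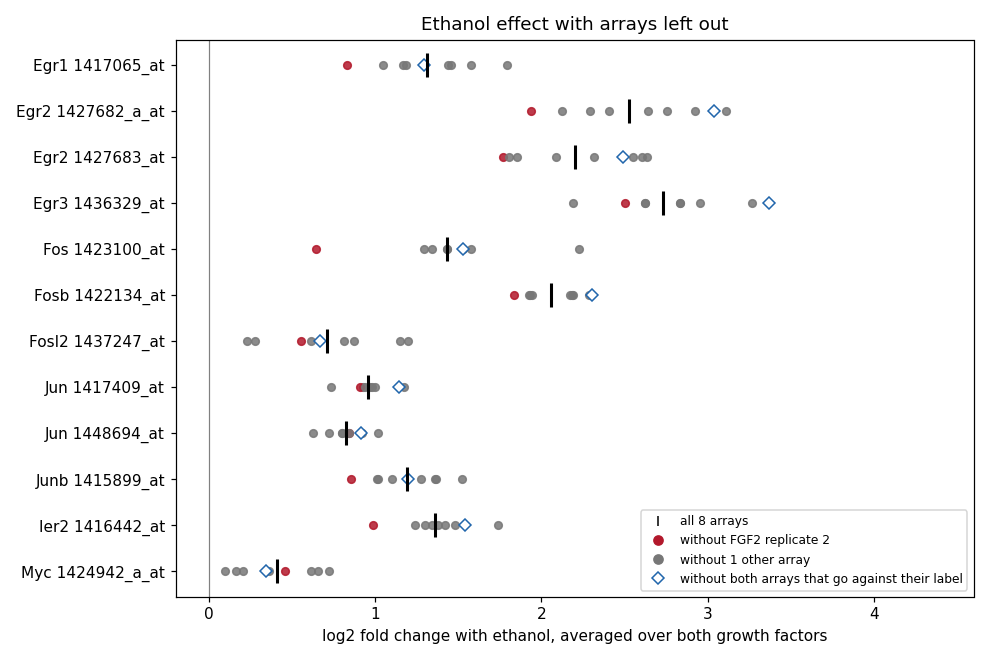
Average log2 fold change with ethanol of the 12 tested probe sets with all 8 arrays (black bar), with 1 array left out (circles, red where that array is FGF2 replicate 2) and without both arrays that go against their label (diamonds). The effects of Egr1, Egr2 and Fos are among those lowest without FGF2 replicate 2, and no value falls below 0.

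Within FGF2 the effects were larger than within TGF-beta1 for 11 of the 12 probe sets, the exception being Myc. These comparisons share no arrays with each other, but the average shares all of theirs. Within FGF2 all 12 lay above 0 with a median of 2.25, against 52.7% and 0.03 over all probe sets. Within TGF-beta1 all 12 lay above 0 with a median of 0.59, against 54.4% and 0.05. By limma 0 of 12 passed within FGF2, where 0% of all probe sets did, and 10 of 12 were higher at an unadjusted p under 0.05, against 3.6% of all. By limma 0 of 12 passed within TGF-beta1, where 0.711% of all probe sets did (0.062% rose and 0.649% fell). There 2 of 12, Egr3 and Fosb, were higher at an unadjusted p under 0.05, against 4.1% of all. All 4 Fosb signals in that comparison were near background. The members' median within FGF2 was 1.30 without FGF2 replicate 2 and 3.13 without FGF2 replicate 1. Within TGF-beta1 it was 0.18 (11 of 12 above 0) without replicate 2 of Ethanol and TGF-beta1, 1.15 without replicate 1 of that group, 0.39 (11 of 12 above 0) without TGF-beta1 replicate 1 and 0.98 without TGF-beta1 replicate 2. Without both arrays that go against their label 13 member probe sets passed the filter, and their medians were 1.91 within FGF2 and 1.08 within TGF-beta1. These are not medians of the same 12 probe sets. For the 12, the median within FGF2 was 2.11 without replicate 1 of Ethanol and FGF2.

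The difference between the ethanol effects was tested as an interaction. It was below 0 (smaller effect in TGF-beta1) for 11 of 12 probe sets, with a median of -1.76, but 0 of 12 passed by limma, as did 0% of all probe sets. At an unadjusted p under 0.05, 4 of 12 were lower (Ier2, Fosb, 1427683_at of Egr2 and 1417409_at of Jun), against 2.2% of all. The median was -0.85 without FGF2 replicate 2 and -1.08 without replicate 1 of Ethanol and TGF-beta1. Without both arrays that go against their label it was -0.90, with 4 of 13 above 0. The interaction was -1.96 ± 0.64 for Ier2 and -1.81 ± 0.66 for Fosb (adjusted p = 0.831 each). Fosb was near background on all arrays of both TGF-beta1 groups. Since 1 array of each ethanol group goes against its growth factor label, these interaction values rest on the labels as given. As for RNA quality, the ratio of the Gapdh 3′ to 5′ signals was 1.93 and 2.06 in TGF-beta1 with ethanol, against 1.70 and 2.20 in TGF-beta1 alone. It was 3.33 and 3.48 in FGF2 with ethanol, against 1.64 and 2.20 in FGF2 alone, and Ethanol and FGF2 arrays held the highest signal of 11 of the 12 probe sets. The same ratio for Actb was 3.57 and 4.20 in FGF2 with ethanol, against 2.35 and 3.61 in FGF2 alone, where the groups overlapped. The part of these ratios in the result was not tested.

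Without ethanol, TGF-beta1 was compared with FGF2, a mitogen for neural stem cells that signals through ERK. By limma 0 of 12 probe sets passed, as did 0% of all, and 0 of 12 had an unadjusted p under 0.05, against 4.44% of all. The test took its spread from all 4 groups, so both arrays that go against their label enter that spread, though neither is compared here. The fold changes were above 0 for 11 of 12, with a median of 0.63. FGF2 replicate 2 was the lowest of the 8 arrays for 10 of the 12 probe sets, and without it 6 of 12 lay above 0 and the median was -0.0071. For Fos the log2 fold change was 1.54 ± 0.76, and -0.038 without that array. Myc was the exception, with 302 and 549 in TGF-beta1 against 735 and 842 in FGF2, a log2 fold change of -0.91 ± 0.47 (limma adjusted p = 0.999) that ran from -1.32 to -0.50 with 1 array left out.

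With ethanol present, 11 of the 12 probe sets lay lower in TGF-beta1 than in FGF2, with a median of -0.76. By limma 0 of 12 passed, as did 0% of all probe sets, and 4 of 12 were lower at an unadjusted p under 0.05, against 1.19% of all. The groups of Ier2 did not overlap (239 and 342 in TGF-beta1 with ethanol, against 692 and 821 in FGF2 with ethanol), and its log2 fold change was -1.33 ± 0.45 (adjusted p = 0.985). Both arrays that go against their label enter this comparison. Without them the median was -0.22, with 5 of 13 above 0, and the Fosl2 value was 1.81, against -0.031 with all arrays. The median was -0.27 without replicate 1 of Ethanol and TGF-beta1.

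No other immediate-early gene was called in the average. Of 34 other immediate-early genes, 28 were tested by their brightest probe set, and by limma 0 rose and 0 fell in the average, with 24 above 0 and a median of 0.24, against 0.03 over all genes. Those with the smallest p were Nfil3, a leucine zipper repressor (0.95 ± 0.31, limma adjusted p = 0.267), and Zfp36, an mRNA decay factor (1.48 ± 0.48, adjusted p = 0.269). Zfp36 signals were 412 and 1762 in TGF-beta1 with ethanol, against 364 and 264 in TGF-beta1 alone. They were 1075 and 1226 in FGF2 with ethanol, against 744 and 184 in FGF2 alone. Within FGF2 the smallest p was that of Nr4a1, a nuclear receptor, at 2.16 ± 0.67 (adjusted p = 0.398). The activity genes Arc and Npas4, with Egr4, Fosl1 and Dusp2, were near background on all arrays.

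No tested regulator or partner of the members was called in the average. Of 14 tested genes of the ERK, SRF and CREB pathway (23 listed), 0 passed by limma. The other listed genes of this pathway had no probe set of 1 symbol and were not measured here. Of these 14, 9 lay above 0, against 55.3% of all probe sets tested, and the median was 0.09. The smallest p was that of Creb1, at -0.48 ± 0.19 (adjusted p = 0.406). Of 9 tested AP-1 and Egr partners and repressors (11 listed), 0 passed, 8 lay above 0 and the median was 0.35. Among them were Atf7, a CREB-family factor, at 0.93 ± 0.22 (adjusted p = 0.0971), and Jdp2, a repressor of AP-1, at 0.72 ± 0.18 (adjusted p = 0.105).

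Genes linked to Myc gave no call either. Of 11 genes of the Myc and Max network 0 passed by limma. Of these 11, 7 lay above 0, against 55.3% of all probe sets tested, and the median was 0.04. The Myc antagonists Mxd3 and Mxd1 had -0.67 ± 0.21 and -0.49 ± 0.20 (adjusted p = 0.245 and 0.41). Of 17 Myc target genes 0 passed, 2 lay above 0 and the median was -0.21. The pyrimidine synthesis gene Cad had -0.61 ± 0.22 (adjusted p = 0.332). The cap-binding gene Eif4e had -0.51 ± 0.21 (adjusted p = 0.416).

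**Figure D4:**
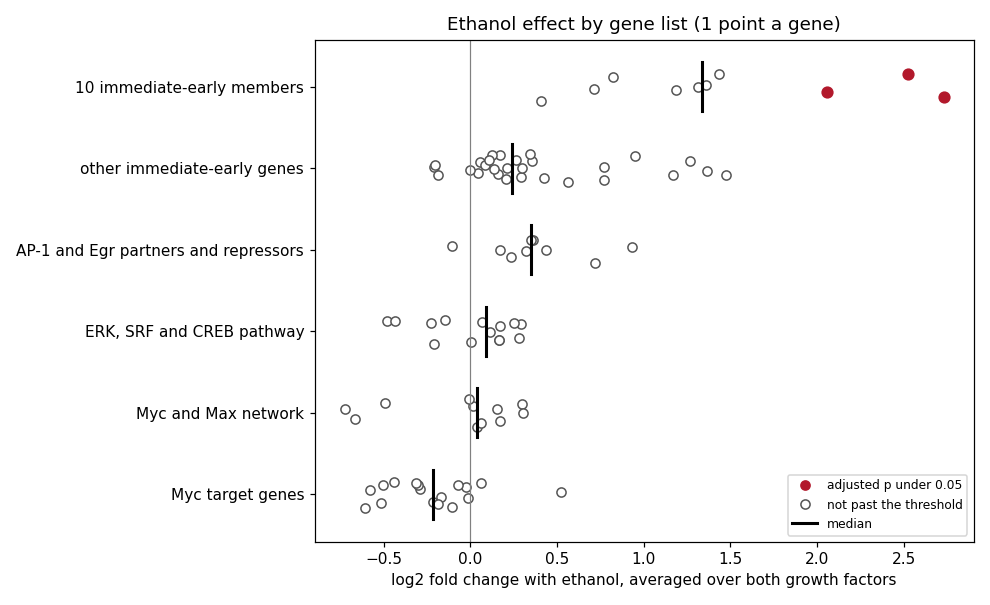
Average log2 fold change with ethanol of each tested gene, by its brightest probe set, for the 10 members and 5 lists of related genes, with the median of each list as a black bar. Filled points passed an adjusted p of 0.05, which 3 members and 0 genes of the other lists did, and the members' median of 1.34 compares with medians from -0.21 to 0.35 in the other lists.

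Markers of cell state and of other cell types were read beside these values. The mitosis genes fell: 17 of 18 tested in the average, with a median of -3.29, and a summed signal of 2376 to 5587 with ethanol, against 14968 to 50244 without it. Within TGF-beta1 16 of 18 fell, and within FGF2 0 of 18 passed, with a median of -3.06. Of 12 tested neuronal markers (16 listed) 1 rose, the RNA-binding protein gene Celf4 (2.76 ± 0.43, limma adjusted p = 0.0115), and the median was 0.74. Within TGF-beta1 2 rose, Celf4 (3.41, adjusted p = 0.0385) and the microtubule gene Dcx (2.70, adjusted p = 0.0491). Their summed signal was 11020 to 16439 with ethanol, against 6240 to 13420 without it, and Stmn2, Dlx5 and Gad2 were near background on all arrays. Of 8 astrocyte markers 0 passed by limma in the average (median 0.00), and the summed signal was 63671 to 70351 with ethanol, against 43580 to 84259 without it. By limma 0 of 2 tested oligodendrocyte markers passed in the average (2 above 0, median 0.53). Mbp, Mog, Mag and Mobp of that list were near background on all arrays. Of 5 tested mesenchymal markers 0 passed (4 above 0, median 0.67), and Col1a2, Thy1 and Postn were near background on all arrays. All 8 endothelial and 5 of 8 microglial markers were near background on all arrays. The part of these cell types and of the fall in mitosis genes in the members' values was not tested.

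The members differed in how alike their profiles were. Over the 8 arrays Egr2 had a Pearson correlation of 0.962 with Egr3, 0.967 with Fosb and 0.966 with Ier2. Egr1 and Fos had 0.934 with each other. Myc stood apart, with correlations from -0.000836 with Fos to 0.645 with Jun. These arrays share the ethanol contrast, so the correlations describe the same separation as the comparisons above. Among genes outside the members, the first ranked was Golgb1 for Egr1 (0.974), Mapre3 for Egr3 (0.978), Fam229b for Fos (0.969), Atp6v1e1 for Fosb (0.972), Myo1e for Fosl2 (0.983) and Trrap for Ier2 (0.951). For Egr2 it was Defb1 (0.970), which was near background on 6 arrays and belongs to the probe sets that stood in for background. For Jun it was Ptchd4 (0.979) and for Myc Hrk (0.973), near background on 6 and 7 arrays, and for Junb Zfp954 (0.978), near background on 1. With 8 arrays and 11510 genes such values were found for every member: the lowest of the 30 named by rank, 3 for each member, was 0.94. Of these 30 entries, some of which name the same gene, 12 were near background on at least 1 array.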

How the data were processed

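RNA of 8 samples was measured on Affymetrix mouse arrays. Per the labels, RNeasy columns gave the RNA and biotin cRNA was hybridised. The submitters' processing notes name MAS5 and GCOS, and their versions are not given in the sources used here. The authors deposited a linear signal intensity for each probe set on each array, and these show a common 2% trimmed mean of 500. Probe sets were named from GEO's platform annotation: 34945 had 1 symbol, 932 several and 9160 none, and 64 were controls. The log2 of signal plus 23.7 was taken (the 25th percentile over all arrays), and the log2 values were not normalized further. The signal filter kept 20967 probe sets, those whose mean log2 value reached 6.17, the 40th percentile. Fold changes are on this scale and understate those of low signals. limma 3.58.1 in R 4.3.3 fitted 4 group means to all 8 arrays (4 residual and 5.73 prior degrees of freedom, trend), with two-sided p-values adjusted by Benjamini-Hochberg within each of 6 comparisons. The code was checked on simulated data. The number of arrays limits precision. The members, lists and tests were chosen with earlier results of these data known. Every member probe set is reported. Of each other list, up to 4 genes past the threshold or the 2 with the smallest p were eligible to be named, and some are left out. For each member, the 3 most correlated genes were ranked.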

Additional observations from a re-analysis of the deposited data

How the results depend on the processing

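The count of member probe sets past the threshold in the average ethanol effect was 3, with 1 at a constant of 1, 1 under a filter at the 60th percentile (which removed Fosb and Junb), and 0 without both arrays that go against their label. It was 4 at a constant of 100, and 2 both without the trend and with 1 probe set a gene. With 1 array left out it ran from 0 to 7. Within FGF2 it was 0, with 1 after quantile normalization (Fosb) and 0 to 1 with 1 array left out. In the other 4 comparisons it was 0 under every alternative run. The count of near-background signals was 29 with a fixed level of 100 also, but they were not all the same signals. Fosb was then low on 5 arrays in place of 6, and Junb on 4 in place of 3. The Egr3 probe set 1436329_at was low on 2 arrays in place of 1, and 1427683_at of Egr2 on 0 in place of 1. No average effect changed sign. The cause of these changes was not tested. With the replicate number as a replicate block, 2 member probe sets passed in the average (Egr3 and Fosb), and Egr2 had an adjusted p of 0.0953. Differences between replicates correlated from -0.34 (between the 2 ethanol groups) to 0.45 (between FGF2 and TGF-beta1). On arrays without ethanol, replicate 1 had median signals of 50.7 in FGF2 and 50.6 in TGF-beta1, and replicate 2 86.5 and 80.7. The labels do not say whether the replicate number pairs the samples, and a shared batch was not tested. Over all probe sets the average gave 301 calls, 125 to 332 with 1 array left out and 0 without both arrays. Within TGF-beta1 it was 149, but 34 with the block and 0 to 215 with 1 array left out.

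Some effects that did not pass the test changed sign, and their ranges with 1 array left out follow. Within FGF2 Myc ran from -0.40 to 0.84, and within TGF-beta1 Egr1 from -0.11 to 0.96 and Fosl2 from -0.54 to 1.21. The interaction ran from -1.72 to 0.21 for Fosl2, -0.77 to 0.56 for Junb and -0.25 to 1.00 for Myc. TGF-beta1 against FGF2 without ethanol ran from -0.43 to 1.91 and -0.15 to 1.59 for the Egr2 probe sets, -0.038 to 3.13 for Fos, -0.022 to 0.065 for Jun 1448694_at, -0.43 to 0.90 for Junb and -0.12 to 1.39 for Ier2. With ethanol it ran from -0.99 to 0.93 for Fosl2, -0.23 to 0.49 for Junb and -1.16 to 0.088 for Myc. Without both arrays that go against their label, Myc had -0.40 within FGF2, the interaction was 1.09 for Fosl2, 0.10 for Jun 1448694_at and 0.60 for Junb, and TGF-beta1 against FGF2 with ethanol was 1.81 for Fosl2, 0.12 for Jun 1448694_at and 0.58 for Myc. With a constant of 100 the interaction of Junb was 0.012. Signals of Fosb and Junb near background limit what their sizes show.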
